A study of Mus musculus with 6 samples.

Results

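Long non-coding RNAs (lncRNAs), transcripts of at least 200 bases that are not annotated as coding for a protein, were read out in Treg cells with excess miR-27 and in control Treg cells. Members were the RefSeq transcripts annotated as ncRNA with an NR identifier, without microRNA hairpins, snoRNAs and scaRNAs, taken with 1 transcript per gene symbol. A mean level of at least 20 RPKM over the 6 libraries was required, and Dio3os and 5830416I19Rik were added by name. This gave 256 lncRNAs, 254 by level and 2 by name, of 2101 candidate symbols of the same class and of 24453 gene symbols in all. RPKM stands here for reads per kilobase of transcript and per 10000000 counted reads. Levels chose the members, so a high level is a description and not a result. Just inside the limit stood C130036L24Rik at a mean of 20.2 RPKM, Fam219aos at 20.2 and A230020J21Rik at 20.1. Just outside stood Gm38426 at 19.5, BC065397 at 19.3 and BC051537 at 19.3.

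The miR-27 Tg group consisted of 3 libraries from mice that overexpress miR-27a in Treg cells only, and the series names these mice Foxp3cre het. The WT group, the control, consisted of 3 libraries, and its genotype label reads WT Tg, a wording that the sources used here do not explain. All libraries came from CD4+Foxp3+ Treg cells purified by FACS, and the donor mice were healthy C57BL/6 females. Ages, the promoter of the transgene and the number of mice behind a library are not given in the sources used here. The p-values therefore measure only the spread between libraries, which may be technical. In a bulk sample, fewer cells of a type and less RNA per cell cannot be told apart.

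Treg cells restrain immune responses, and Foxp3 is their defining transcription factor. lncRNAs act in several known ways. Some build nuclear bodies or silence chromatin, as Neat1, Malat1 and Xist do. Others carry snoRNAs in their introns, small RNAs that guide the chemical modification of ribosomal RNA, while the spliced host itself is often unstable. MicroRNAs such as miR-27 pair through their seed with cytoplasmic RNAs, mostly messenger RNAs, and lower their level or translation.

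Depth was 38100000, 34400000 and 34400000 counted reads in miR-27 Tg replicates 1 to 3 and 42100000, 39300000 and 37700000 in WT replicates 1 to 3. The Mir27a hairpin had 2921, 2206 and 2339 reads in miR-27 Tg libraries, against 9, 13 and 8 in WT libraries, so each library matched its label. Foxp3 had 955, 774 and 777 RPKM in miR-27 Tg libraries, against 830, 662 and 801 in WT libraries. The summed level of 8 Treg markers was 9008 to 9525 RPKM in miR-27 Tg libraries and 10259 to 10949 in WT libraries. Of these 8, Tigit, an inhibitory receptor, was lower by the test (88.9 ± 12.5 RPKM in miR-27 Tg and 236 ± 40.5 in WT, SD, n = 3 each, adjusted p = 0.0177 by limma). Ctla4 had 2335 ± 234 RPKM in miR-27 Tg and 3436 ± 324 in WT (adjusted p = 0.0868 by limma). The log2 fold change was below 0 in 5 of the 8 and above 0 in Foxp3, Il2ra and Cd4 (0.13, 0.10 and 0.18). Of 10 myeloid markers, 9 had an unadjusted p under 0.05 on the higher side and 1 of them, Itgam, passed the test. Their summed level was 683 to 1360 RPKM in miR-27 Tg libraries and 545 to 819 in WT libraries, and none of the 10 was at 0. Summed levels of B cell markers (92.3 to 138 and 117 to 143 RPKM), of CD8 T and NK cell markers (160 to 266 and 182 to 243) and of erythroid markers (8.31 to 49.8 and 15.1 to 67.9) overlapped between miR-27 Tg and WT. Of the CD8 T and NK cell markers Nkg7 was lower by the test (53.0 ± 5.52 RPKM in miR-27 Tg and 102 ± 11.6 in WT, adjusted p = 0.0257 by limma) and Ncr1 was at 0 in 1 WT library. The part of these cells in the lncRNA values was not tested.

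The 256 lncRNAs took 0.643% to 0.849% of the counted reads of a library. Their transcripts were 293 to 17911 bases long (median 1447). The median member had a mean level of 52.6 RPKM, 60 members reached 100 RPKM, 12 reached 500 and 6 reached 1000. A member chosen by level had at least 21 reads in every library and 300 in the median, and the SD between libraries of a group had a median of 0.17 on the log2 scale.

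Malat1, an RNA of nuclear speckles, was the most abundant lncRNA. It had 1559, 1948 and 1802 RPKM in miR-27 Tg libraries, against 2206, 2944 and 1981 in WT libraries, from 41454 to 80841 reads. The 3 miR-27 Tg values lay below the 3 WT values, with a log2 fold change of -0.41 (SE 0.16) that did not pass the test (adjusted p = 0.322 by limma). It was -0.25 without WT replicate 2 and -0.26 with array weights. Malat1 (NR_002847) lies on chromosome 19 from 5795690 to 5802671 on the minus strand (mm10).

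AW112010, an RNA known to be induced in activated mouse immune cells, came second. Its levels were 1008, 1366 and 1472 RPKM in miR-27 Tg libraries, against 1754, 2006 and 1574 in WT libraries. The groups did not overlap here either, and the log2 fold change was -0.48 (SE 0.16, adjusted p = 0.240 by limma), or -0.32 without miR-27 Tg replicate 1.

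The next places were taken by the snoRNA host 2410006H16Rik (1110 ± 164 RPKM in miR-27 Tg and 1294 ± 127 in WT, SD, n = 3 each), by Gm15441, and by the snoRNA hosts Snhg1 (1081 ± 152 and 1143 ± 139) and Gas5 (1017 ± 141 and 1135 ± 120). Gm15441 is antisense to Txnip, which encodes a thioredoxin-binding protein that restrains glucose uptake. It had 871, 901 and 2133 RPKM in miR-27 Tg libraries, against 1027, 915 and 1291 in WT libraries, so miR-27 Tg replicate 3 stood far above the other libraries. Txnip itself had 2455, 2566 and 5922 RPKM in miR-27 Tg libraries, against 2911, 2540 and 3578 in WT libraries, with the same library on top. Because reads of both strands were counted and 36.7% of the exonic bases of Gm15441 are shared with other annotated genes, the values of this pair cannot be told apart there. The log2 fold change of Gm15441 was 0.15, and -0.27 without miR-27 Tg replicate 3.

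Gm20605 and Neat1 completed the first 8. Gm20605 is a transcript whose exons lie to 94.8% in exons of other annotated genes, among them the coding genes Lrch4 and Sap25, and it had 726 ± 14.9 RPKM in miR-27 Tg and 684 ± 57.6 in WT. Lrch4 had 912 ± 12.7 and 857 ± 61.6 RPKM in the same groups, and Sap25 had 690 ± 30.5 and 643 ± 83.2. Neat1, the scaffold of paraspeckles, had 597, 795 and 700 RPKM in miR-27 Tg libraries, against 610, 733 and 632 in WT libraries. These groups overlapped, with a log2 fold change of 0.08 (SE 0.13). The deposited Neat1 transcript is the short form of 3184 bases.

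The comparison of the groups asked which lncRNAs differ in Treg cells that carry excess miR-27. None of the 254 members chosen by level passed the test in either direction (limma on log2(RPKM + 1), Benjamini-Hochberg adjustment over 13621 genes, threshold 0.05), whereas 140 of those 13621 genes did (1.03%), 0.374% on the higher and 0.653% on the lower side. Among the genes with a mean of at least 20 RPKM the share was 0.926%. The lowest adjusted p of a member was 0.0564, for 4933412E12Rik. At an unadjusted p under 0.05, 34 members were lower (13.4%) and 8 were higher (3.15%) in miR-27 Tg. Among the 9616 genes with a mean of at least 20 RPKM these shares were 6.94% lower and 4.14% higher. In 49 members (19.3%) all 3 miR-27 Tg libraries lay below all 3 WT libraries, and in 10 (3.94%) they lay above, against 9.86% below and 6.71% above among genes of at least 20 RPKM and 11.6% below and 6.84% above among all genes tested.

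Most differences were small. The log2 fold change was under 0.5 in size in 238 of 254 members, and its range was -1.05 to 1.12. It was below 0 in 168 members (66.1%), against 51.9% of genes with a mean of at least 20 RPKM, with a median of -0.08 against -0.0064. After the libraries were rescaled to the same median, 148 members were below 0 with a median of -0.04, while the median of all genes tested was 0.02, against -0.01 before. Without WT replicate 1 there were 184 members below 0 with a median of -0.12, and the median of all genes tested was -0.04. Of the 8 most abundant members 5 had a log2 fold change below 0 and 3 (Gm15441, Gm20605 and Neat1) had one above 0.

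**Figure D1:**
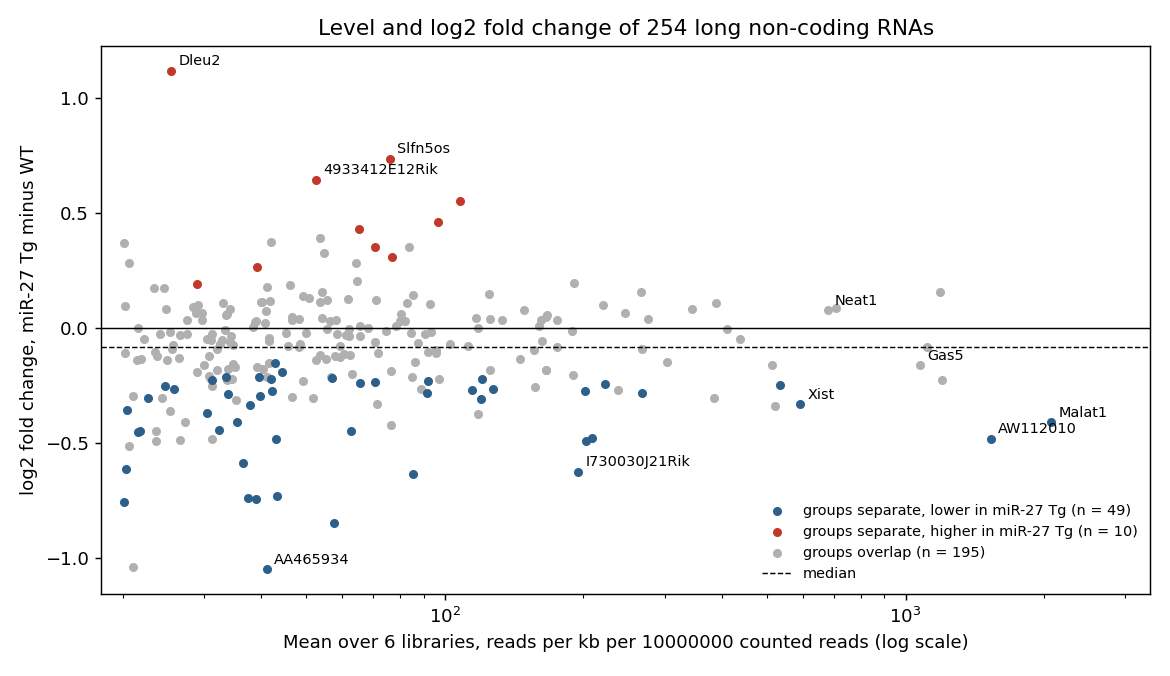
Each point is 1 of the 254 lncRNAs chosen by level, with the mean level over 6 libraries (reads per kilobase per 10000000 counted reads, log axis) across and the log2 fold change, miR-27 Tg minus WT, upward. Red points have all miR-27 Tg libraries above WT (n = 10), blue points have all below (n = 49), grey points overlap (n = 195), and the dashed line marks the median of -0.08.

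Dio3os and 5830416I19Rik, the members added by name, are given as a description and were not tested. 5830416I19Rik (NR_045384, chromosome 5 from 64044973 to 64050226, plus strand, mm10) had 0.60, 0.332 and 0.884 RPKM in miR-27 Tg libraries, against 9.05, 15.8 and 19.2 in WT libraries. These values came from 6, 3 and 8 reads in miR-27 Tg and from 100, 163 and 190 reads in WT. It shares no exonic base with another annotated gene, and the nearest coding gene, Pgm1, lies 42724 bases away. The difference on the log2(RPKM + 1) scale was -3.24. It was -4.40 with a pseudocount of 0.1 and -1.78 with a pseudocount of 5, since the pseudocount sets much of a value near 0.

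Dio3os (NR_002866, chromosome 12 from 110275385 to 110278068, minus strand, mm10) runs from the imprinted Dlk1-Dio3 region, opposite to the gene of the thyroid hormone deiodinase Dio3. It had 0.618, 0.228 and 0.228 RPKM in miR-27 Tg libraries, against 6.53, 5.38 and 6.04 in WT libraries, from 3, 1 and 1 reads in miR-27 Tg and 35, 27 and 29 in WT. The difference was -2.37 on the log2(RPKM + 1) scale, -3.83 with a pseudocount of 0.1 and -1.03 with a pseudocount of 5. Dio3, whose start lies 1162 bases from that of Dio3os on the other strand, had 0.141, 1.25 and 0.934 RPKM in miR-27 Tg libraries, against 3.44, 2.73 and 2.70 in WT libraries. Its log2 fold change of -1.21 (SE 0.31) did not pass the test (adjusted p = 0.140 by limma).

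Beside these, 10 lncRNAs had separate groups and a log2 fold change of at most -0.5, and 4 had separate groups and at least 0.5. None of the 14 passed the test. The values of the lowest follow first.

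AA465934 (chromosome 11 from 83291699 to 83294637, plus strand), which holds Snord7 inside its gene, had 36.7, 15.8 and 29.3 RPKM in miR-27 Tg libraries, against 47.4, 54.0 and 63.3 in WT libraries. Its log2 fold change was -1.05 (SE 0.28, adjusted p = 0.151 by limma). With 21 to 92 reads per library, this is a thinly covered RNA, and miR-27 Tg replicate 2 was the lowest library. The Snord7 row of the table had 2, 3 and 8 reads in miR-27 Tg libraries, against 7, 16 and 6 in WT libraries. 4930431P03Rik followed with 29.9, 52.1 and 40.1 RPKM in miR-27 Tg libraries, against 61.8, 101 and 60.5 in WT libraries (log2 fold change -0.85, SE 0.25, adjusted p = 0.193). Other annotated genes, none of them coding, share 98.4% of its exonic bases.

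Fam219aos had 15.3, 17.3 and 11.9 RPKM in miR-27 Tg libraries, against 23.9, 25.6 and 27.1 in WT libraries (log2 fold change -0.76, SE 0.17, adjusted p = 0.0920 by limma). It shares 66.2% of its exonic bases with other annotated genes, among them the opposite gene Fam219a. Fam219a had 26.6 ± 3.52 RPKM in miR-27 Tg and 32.1 ± 0.0723 in WT (log2 fold change -0.27). Rab26os, the host of Snord60, had 22.4, 30.7 and 33.7 RPKM in miR-27 Tg libraries, against 39.8, 52.1 and 55.3 in WT libraries (log2 fold change -0.75, SE 0.19). Traf7, which starts 313 bases away on the other strand and encodes a ubiquitin ligase, had a log2 fold change of 0.24 (394 ± 19 RPKM in miR-27 Tg and 333 ± 8.05 in WT). In neither direction did Rab26os or Traf7 pass.

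2310015A10Rik (27.7 ± 4.93 RPKM in miR-27 Tg and 47.1 ± 9.48 in WT), 1810006J02Rik (32.3 ± 6.34 and 54.3 ± 10.7) and 5830428M24Rik (66.7 ± 12.1 and 104 ± 18.8) had log2 fold changes of -0.74, -0.73 and -0.63. Of these, 2310015A10Rik and 1810006J02Rik share no exonic base with another gene, and 5830428M24Rik was not matched to the exon annotation. I730030J21Rik was the most abundant of the 10, with 135, 155 and 167 RPKM in miR-27 Tg libraries, against 205, 276 and 229 in WT libraries. Its log2 fold change was -0.63 (SE 0.13, adjusted p = 0.0858 by limma), it shares no exonic base with another gene, and it lies on chromosome 15 from 100730505 to 100732737 on the minus strand.

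The last 2 of the 10 lie beside expressed coding genes with values on the same side, and their exons overlap those of these genes. 0610040F04Rik had 15.9 ± 2.87 RPKM in miR-27 Tg and 24.8 ± 4.74 in WT (log2 fold change -0.61, SE 0.20). Bhlhe40, a transcription factor gene of activated T cells that starts 305 bases away on the other strand, had 314, 279 and 201 RPKM in miR-27 Tg libraries, against 463, 391 and 332 in WT libraries (log2 fold change -0.59, SE 0.18, adjusted p = 0.214 by limma). Gm16157 had 28.8 ± 1.65 RPKM in miR-27 Tg and 44.4 ± 9.44 in WT (log2 fold change -0.59), beside Fam169b with 626 ± 33.6 and 788 ± 81.2 (log2 fold change -0.33, SE 0.10). The lncRNAs share 6.81% and 14.6% of their exonic bases with other genes. Reads of both strands were counted, so on shared bases each lncRNA and its neighbour cannot be told apart.

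On the higher side, Dleu2 (NR_028264, chromosome 14 from 61602836 to 61682373, minus strand), the host of miR-15a and miR-16-1, had the largest log2 fold change of all members. Its levels were 31.9, 28.1 and 46.3 RPKM in miR-27 Tg libraries, against 19.3, 14.6 and 12.9 in WT libraries. The log2 fold change was 1.12 (SE 0.22, adjusted p = 0.0700 by limma), and it passed when transcripts of under 200 bases were left out of the table (adjusted p = 0.0415), 1 of 16 alternatives tried. The Mir15a and Mir16-1 rows had 0 to 5 reads per library, too few for a comparison.

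Slfn5os (NR_045932, chromosome 11 from 82942341 to 82960681, minus strand) is antisense to Slfn5, a Schlafen family gene. It had 88.3, 104 and 93.6 RPKM in miR-27 Tg libraries, against 49.1, 69.4 and 53.0 in WT libraries (log2 fold change 0.74, SE 0.15, adjusted p = 0.0683 by limma). Slfn5 had 400, 524 and 456 RPKM in miR-27 Tg libraries, against 271, 349 and 276 in WT libraries (log2 fold change 0.62, SE 0.14, adjusted p = 0.0917). Other genes share 39.7% of the exonic bases of Slfn5os, and reads of both strands were counted, so the antisense RNA and Slfn5 cannot be told apart on those bases. Slfn5os passed in 6 of 16 alternatives.

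4933412E12Rik (NR_038026, chromosome 10 from 116950562 to 116963279, plus strand) starts 182 bases from Rab3ip on the other strand. It had 60.6, 66.0 and 66.4 RPKM in miR-27 Tg libraries, against 40.8, 36.4 and 45.4 in WT libraries (log2 fold change 0.65, SE 0.12, adjusted p = 0.0564 by limma), and it passed in 6 of 16 alternatives. Rab3ip, which encodes an exchange factor for Rab8, had overlapping groups with 243 ± 43.1 RPKM in miR-27 Tg and 210 ± 33.1 in WT. Gm15708 had 122, 124 and 138 RPKM in miR-27 Tg libraries, against 74.3, 102 and 86.7 in WT libraries (log2 fold change 0.55, SE 0.13). It shares 1.93% of its exonic bases with other annotated genes, among them Baiap2l1, a gene of low level in these cells (4.04 ± 0.509 RPKM in miR-27 Tg and 3.82 ± 0.0710 in WT).

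**Figure D2:**
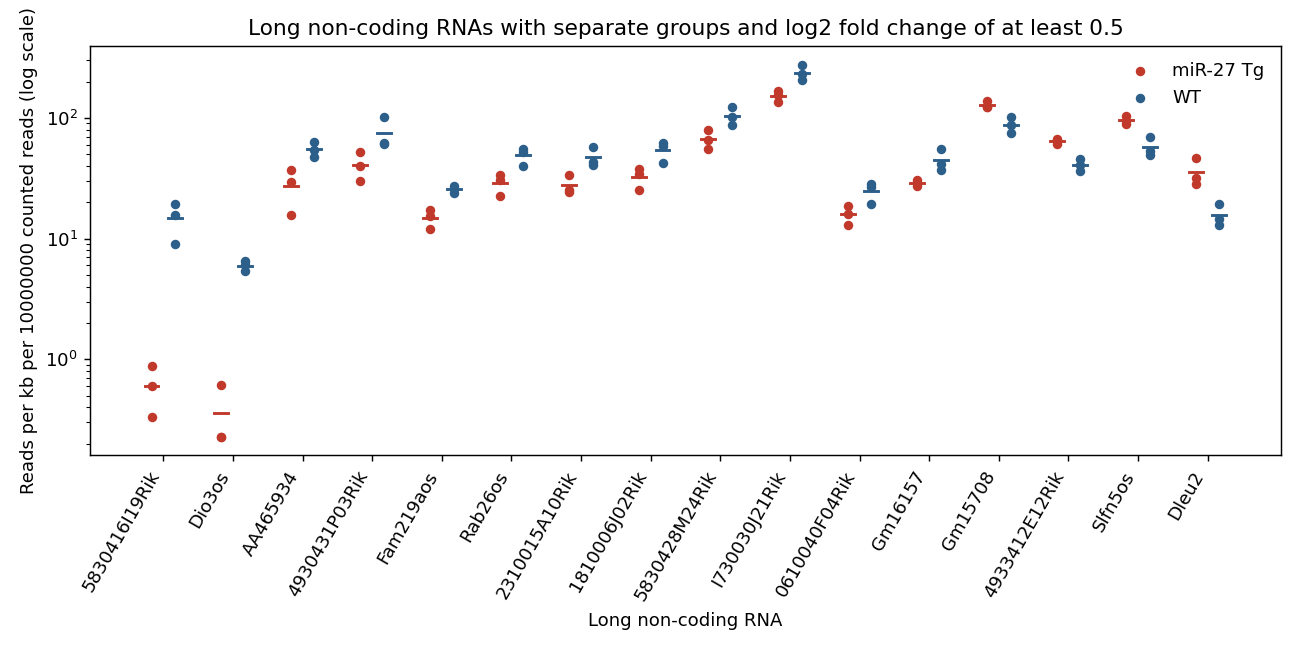
Levels of the 16 lncRNAs whose groups do not overlap and whose log2 fold change is at least 0.5 in size, in reads per kilobase per 10000000 counted reads (log axis), ordered by fold change. Points are libraries (3 miR-27 Tg in red on the left, 3 WT in blue on the right), bars are means, and 2 of the Dio3os points in miR-27 Tg coincide at 0.228; 5830416I19Rik and Dio3os were added by name and not tested.

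A list drawn up for RNAs of nuclear bodies and chromatin, chosen with results known, held 8 members. Where these RNAs act in the cell was not measured, and 2900097C17Rik may not belong to this class. By the test 0 passed, 5 had an unadjusted p under 0.05, and 6 had a log2 fold change below 0, with a median of -0.24. Over all genes tested 13.0% had an unadjusted p under 0.05. The groups were separate and lower in 5 (Malat1, Xist, Tsix, Peg13 and 2900097C17Rik) and separate and higher in 1, Airn, against 11.6% and 6.84% of all genes tested. Beyond Malat1, Neat1 and Xist, these were named after their values were seen.

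Xist, the RNA that coats and silences the inactive X chromosome in female cells, had 506, 552 and 506 RPKM in miR-27 Tg libraries, against 690, 712 and 573 in WT libraries. With 31238 to 51982 reads its counting error is small, and the log2 fold change was -0.33 (SE 0.10, adjusted p = 0.226 by limma). Tsix, its antisense partner, had 178, 184 and 184 RPKM in miR-27 Tg libraries, against 222, 234 and 206 in WT libraries (log2 fold change -0.27, SE 0.08). The interval of Xist lies inside that of Tsix on the other strand and 46.0% of the exonic bases of Tsix are shared with other genes, so reads of Xist can be counted for Tsix. The imprinted RNAs differed in sign. Peg13 had 116, 124 and 105 RPKM in miR-27 Tg libraries, against 151, 129 and 137 in WT libraries (log2 fold change -0.27), while Airn, which silences its neighbours on the paternal chromosome, had 70.0, 84.3 and 83.4, against 52.9, 63.2 and 69.9 (log2 fold change 0.35, SE 0.14, adjusted p = 0.313). Ftx, a neighbour of Xist, had overlapping groups (27.1 ± 4.24 RPKM in miR-27 Tg and 31.0 ± 4.91 in WT).

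A list drawn up for immune-locus RNAs held 3 members, of which 0 passed. All 3 log2 fold changes were below 0 (median -0.37), as were 52.9% of those of all genes tested. Beside AW112010 these were A430093F15Rik and Lncpint. A430093F15Rik, which starts 1973 bases from Cd5 on the other strand, had 88.0, 122 and 96.6 RPKM in miR-27 Tg libraries, against 120, 169 and 112 in WT libraries (log2 fold change -0.37, SE 0.18, and -0.19 without WT replicate 2). Cd5, a surface receptor that damps T cell receptor signals, had 1934 ± 135 RPKM in miR-27 Tg and 1920 ± 88.1 in WT. Lncpint, a p53-induced RNA that may not belong to this class, had 68.9 ± 8.54 RPKM in miR-27 Tg and 74.6 ± 10.9 in WT.

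Of the listed microRNA hosts and RNAs at oncogene loci, 3 were members and 0 passed: Dleu2, Pvt1 and Tug1. Pvt1, the neighbour of Myc, had 30.3, 36.1 and 32.8 RPKM in miR-27 Tg libraries, against 37.3, 54.4 and 36.2 in WT libraries. Its groups were separate by a narrow margin (log2 fold change -0.34, SE 0.17, adjusted p = 0.486 by limma, and -0.15 without WT replicate 2). Tug1 had 354 ± 12.9 RPKM in miR-27 Tg and 335 ± 40.9 in WT. A list of structured RNAs of stable ribonucleoproteins held 0 members.

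Host RNAs of snoRNAs formed the largest functional class. By the exon annotation 22 members hold at least 1 snoRNA inside their gene, and their median level was 157 RPKM. None of the 22 passed the test, 4 had an unadjusted p under 0.05, and 4 had separate groups, all of them lower in miR-27 Tg. These 4 were AA465934, AI506816, Rab26os and Snhg4. Of all genes tested, 13.0% had an unadjusted p under 0.05 and 11.6% were separate and lower. Among all 254 members 19.3% were separate and lower, a share close to that of the hosts. Snhg20 had a log2 fold change above 0, and the other 21 had one below 0, with a median of -0.20 over the hosts. Of all genes tested 52.9% had one below 0. The 232 other members had a median of -0.07 with 147 below 0. The largest differences among the hosts were those of AA465934 and Rab26os, given above, with log2 fold changes of -1.05 and -0.75. Differences were smaller in more abundant hosts. Snhg8 had 462 ± 83.3 RPKM in miR-27 Tg and 579 ± 43.6 in WT, Snhg12 had 484 ± 58.0 and 542 ± 67.4, and Snhg5 had 343 ± 55.0 and 423 ± 57.5. In a shorter list of hosts known by name, 18 were members and 15 were below 0 (median -0.18), although Gm15441, 1700020I14Rik and Ftx of that list hold no annotated snoRNA.

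The hosts shared a pattern across libraries. Relative to each gene's mean over 6 libraries on the log2 scale, the median host stood at -0.27, -0.05 and 0.06 in miR-27 Tg replicates 1 to 3 and at -0.04, 0.28 and 0.14 in WT replicates 1 to 3. Replicate 1 was the lowest of its group for 19 of 22 hosts in miR-27 Tg and for 17 of 22 in WT. The 232 members with no annotated snoRNA leaned the same way, with replicate 1 lowest for 128 in miR-27 Tg and for 120 in WT. Differences inside a group were of the same order as the difference between groups. Without miR-27 Tg replicate 1 the hosts' median log2 fold change was -0.10, without WT replicate 2 it was -0.11, and without WT replicate 1 it was -0.31.

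Messenger RNAs of cytosolic ribosomal proteins, whose products assemble on the modified ribosomal RNA, had the same low replicates. Of 75 such genes, 69 were lowest in replicate 1 among miR-27 Tg libraries and 61 among WT libraries. Their median deviations were -0.13, -0.02 and 0.24 in miR-27 Tg and -0.22, 0.11 and 0.03 in WT. Between groups they did not share the hosts' sign, with a median log2 fold change of 0.05 and 26 of 75 below 0. The part of the libraries' differences in the hosts' values was not tested.

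**Figure D3:**
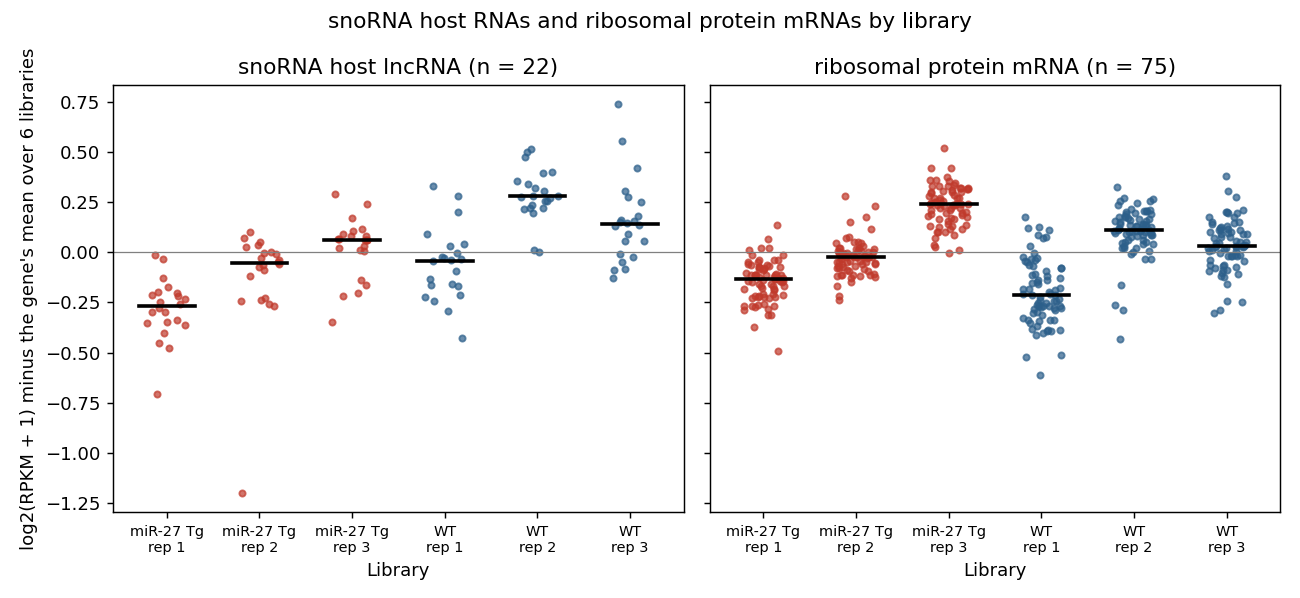
Each point is 1 gene in 1 library, as log2(RPKM + 1) minus the gene's mean over the 6 libraries, for 22 snoRNA host lncRNAs (left) and 75 ribosomal protein mRNAs (right), with miR-27 Tg libraries in red and WT libraries in blue. Black bars are medians, and replicate 1 is the lowest of its group in both panels.

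Many snoRNA hosts and most ribosomal protein mRNAs belong to a class known to begin with a cytosine and a run of pyrimidines, the terminal oligopyrimidine start that links translation to growth signals. Starts of the RefSeq promoter table (GRCm38.p6) within 1 base of the deposited start were found for 18 hosts. Of these, 6 (33.3%) began with C inside a run of at least 5 pyrimidines (C or T, the first C counted, transcribed strand only), against 9 of 170 other members (5.29%), 9 of 49 ribosomal protein genes (18.4%) and 823 of 32851 promoters of the table (2.51%). A start that is annotated a few bases off loses the match. The first 20 bases of the 6 hosts follow, with the pyrimidine run in capitals, to show such a start, which the other 12 of the 18 hosts lack. They lie at chr1:161035166-161035185 (plus), chr3:123508317-123508336 (minus), chr17:34952449-34952468 (minus), chr19:8888751-8888770 (minus), chr17:24528251-24528270 (plus) and chr2:26640225-26640244 (minus).
Gas5: CTTTCggagctgtgcggcat
Snhg8: CTCTTTggctgcgatccgcc
1110038B12Rik: CTCTTTgtgcacccgcccac
5730408K05Rik: CTTTCCaagggtggttttca
Rab26os: CTTTTTgggagtgagtgtgt
Snhg7: CTCTCggcagccatggcggc

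Proteins that work with these RNAs were read from lists chosen in the same way, and 0 passed the test in any list. The snoRNP proteins had a median log2 fold change of 0.04 over 15 genes, for example Nop56 (508 ± 47.4 RPKM in miR-27 Tg and 482 ± 41.2 in WT) and Nop58 (456 ± 48.3 and 431 ± 55.7), core proteins of box C/D particles. For 13 paraspeckle proteins the median was -0.09, with Sfpq at 1070 ± 203 RPKM in miR-27 Tg and 1008 ± 243 in WT. Factors of nonsense-mediated decay, the pathway that removes many spliced snoRNA hosts, had a median of 0.09 over 16 genes, with the kinase Smg1 at 552 ± 50.4 and 496 ± 27.6 and Magoh at 436 ± 48.0 and 451 ± 9.61.

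The silencing partners of Xist had a median of 0.07 over 11 genes, with Hnrnpu at 1372 ± 17 RPKM in miR-27 Tg and 1312 ± 46.7 in WT and Hnrnpk at 651 ± 42.4 and 671 ± 92.6. The nuclear exosome list, which degrades unstable nuclear RNA, had a median of -0.02 over 18 genes, with Exosc8 at 336 ± 40.3 and 372 ± 47.2 and Rbm7 at 308 ± 24.5 and 323 ± 26.2. Proteins of 7SK particles gave 0.02 over 9 genes, with Hexim1 at 316 ± 32.8 and 288 ± 35.9. Those of RNase P and RNase MRP gave 0.12 over 10 genes, with Pop5 at 259 ± 32.9 and 220 ± 24.8 and Rpp21 at 284 ± 30.02 and 226 ± 43.1. Over all genes tested the median was -0.01.

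The position of a lncRNA relative to coding genes bears on what its reads measure, since reads of both strands were counted. By the deposited intervals, 126 members overlap a coding gene on the other strand only, 22 overlap one on the same strand, 43 overlap none but start within 5000 bases of a coding gene in the opposite direction, and 65 do neither. In the GENCODE M21 annotation (GRCm38) 220 members were matched. Of these 148 share at least 1 exonic base with another gene, 125 share one with a coding gene, and 72 share none. Over 50% of the exonic bases were shared with coding genes in 23 members, of which 6 lie mainly on the same strand and 16 mainly on the other.

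The 71 tested members with no shared base had a median log2 fold change of -0.20, with 58 below 0, 18 with separate groups on the lower side (25.4%) and 3 on the higher side (4.23%). The 147 with shared bases had a median of -0.03, with 84 below 0, 22 separate and lower (15%) and 5 separate and higher (3.40%). The 23 that share over 50% with coding genes had a median of 0.03, with 10 below 0 and 2 separate and lower (8.70%). Reads on shared bases count for both genes, and the part of such reads in these differences was not tested. Members of under 1000 bases (n = 87) and longer ones (n = 167) both had a median of -0.08, with 11 of the shorter and 38 of the longer ones separate and lower. For comparison with all these counts, 9.86% of genes with a mean of at least 20 RPKM were separate and lower and 6.71% separate and higher. Among all genes tested these shares were 11.6% and 6.84%.

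Members that start within 5000 bases of the start of a tested coding gene on the other strand numbered 124 pairs. Pairs that run apart from each other and pairs that overlap were counted together. Across these pairs, which share libraries and often reads, log2 fold changes of the lncRNA and its neighbour had a Pearson r of 0.22 and a Spearman rho of 0.22, and 64 pairs had the same sign. Among the 27 pairs with no shared exonic base r was 0.10, rho was 0.04 and 8 had the same sign. The median log2 fold change in these 27 was -0.11 for the lncRNAs and 0.08 for the neighbours. Snhg1 and Slc3a2, which encodes a subunit of amino acid transporters and starts 118 bases away, belong to these pairs, with Slc3a2 at 293 ± 25.8 RPKM in miR-27 Tg and 332 ± 21.5 in WT.

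**Figure D4:**
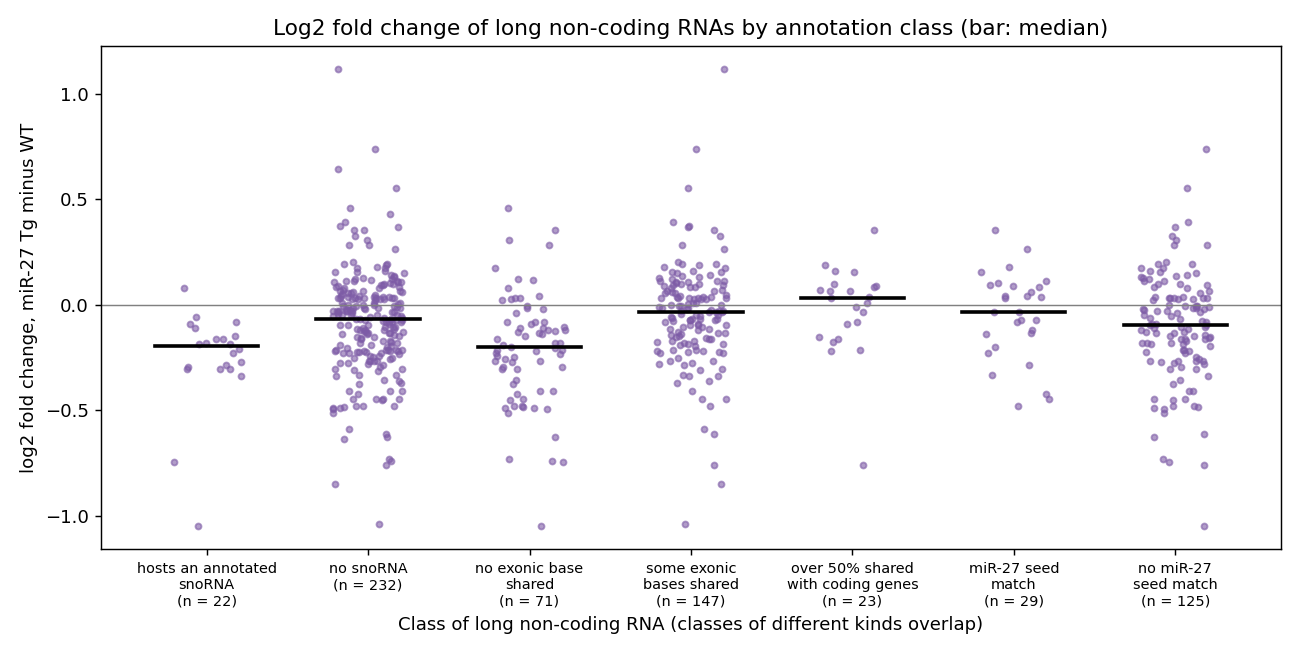
Each point is 1 lncRNA with its log2 fold change, miR-27 Tg minus WT, grouped by whether it holds a snoRNA, by the share of its exonic bases that lie in other genes, and by a miR-27 seed match. Black bars are medians, at -0.20 for snoRNA hosts, -0.20 for members with no shared base, 0.03 for those mostly shared with coding genes, -0.03 with a seed match and -0.09 without, and a member can stand in several classes.

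The mature miR-27 RNAs show what a match would look like. They are printed from RefSeq (GRCm38.p6) with the seed, bases 2 to 8, in capitals, and miR-27a at chr8:84208727-84208747 (plus strand) and miR-27b at chr13:63300760-63300780 (plus strand) share it.
mmu-miR-27a-3p: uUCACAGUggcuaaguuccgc
mmu-miR-27b-3p: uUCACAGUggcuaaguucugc

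The match to this seed in a transcript is the 7-base motif ACTGTGA, or ACTGTGAA with the A that often follows, searched on the transcript's own strand. It was searched in the 155 members whose GENCODE transcript differs from the deposited length by at most 50 bases. Of these 30 (19.4%) held 46 matches, or 0.166 per kilobase, and 12 held the 8-base form. Among all 18691 GENCODE lncRNA transcripts 13.9% held a match, at 0.117 per kilobase. Members with a match were longer, with a median of 2604 bases against 1118.

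The 29 tested members with a match had a median log2 fold change of -0.03, with 15 below 0 and 4 with separate groups on the lower side. The 125 with no match had a median of -0.09, with 84 below 0 and 25 separate and lower. Exon sharing was not held equal between these sets. Members with a match include Dpm1-adnp, Gm28042 and Gm20605, with 100%, 99.9% and 94.8% of exonic bases shared, and 0610012G03Rik with 0%. Of genes with a mean of at least 20 RPKM 9.86% were separate and lower, and of all genes tested 11.6%. A match is a description of letters, and binding was not measured. The longest lncRNA, Xist, held 6 matches, and AI504432 followed with 4. AI504432, named after its values were seen, had 159, 185 and 175 RPKM in miR-27 Tg libraries, against 276, 268 and 191 in WT libraries (log2 fold change -0.48, SE 0.15, adjusted p = 0.216 by limma). The member 5830416I19Rik held an 8-base match near its end. Neither Malat1 nor Gas5 held a match among the transcripts searched.

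The 8-base matches of these RNAs follow with 12 bases before and 10 after, from GENCODE M21 (GRCm38), with the match in capitals, for those 3 of the 12 members with an 8-base match whose groups were separate and lower. They were picked after their values were seen. The groups of the other 9 overlapped, among them Dpm1-adnp with 2 such matches and a log2 fold change of 0.04, 4732471J01Rik at 0.11 and Brip1os at 0.10. Dpm1-adnp, 4732471J01Rik and Brip1os share 100%, 41.7% and 30.7% of their exonic bases with other genes, whose reads count for them too. The printed matches lie, in order, at chr5:64050006-64050035 (plus), chr3:107049937-107049966 (plus), chr3:107053892-107053921 (plus), chrX:103464025-103464054 (minus), chrX:103464000-103464029 (minus) and chrX:103460579-103460608 (minus).
5830416I19Rik: ctcttcctgggaACTGTGAAtgacaactat
AI504432: atggaaagtcaaACTGTGAAcatttaatat
AI504432: caatgcagtgttACTGTGAAtatttaaaag
Xist: cacatttattatACTGTGAAaataaagtaa
Xist: agtaaataagtaACTGTGAAccactgaata
Xist: atcttcccaccaACTGTGAAaaaacacatg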

How the data were processed

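The authors deposited 1 table of RPKM values for 34711 RefSeq transcripts in 6 libraries. STAR 2.2.0c, HOMER, mm10 and GRCm38 are given, without their roles, per the submitters' processing notes. Per the file headers, HOMER counted exonic reads on both strands, and totals were set to 10000000 reads, so antisense partners share reads. Since RPKM is a normalized unit, count models were left out. Read numbers and depth came from the steps of the values, of which 100% were whole reads within 0.1.

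The transcript with the highest mean RPKM was kept per symbol. The 13621 genes with a mean of at least 1 RPKM were fitted on the log2(RPKM + 1) scale in R 4.3.3 by limma 3.58.1 (limma-trend, 6 libraries, no block, two-sided, Benjamini-Hochberg over all genes, threshold 0.05), after a check on simulated data. Fold changes on this scale understate low genes. Levels are mean ± SD. Overlaps, seed matches and starts were computed in Python 3.11.15.

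The members and lists were chosen with earlier results of these data known. Named are members with separate groups and a log2 fold change of at least 0.5 in size, the 8 most abundant, up to 3 per list, the partner genes with the highest levels and neighbours, of which 1 partner gene is not reported here. Replicates of the same number deviated together with r = 0.37, 0.10 and 0.04 and were not treated as pairs. The 16 alternatives changed pseudocount, filter, scaling, weights, trend, block, transcript choice and library set.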

Additional observations from a re-analysis of the deposited data

How the results depend on the processing

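The 2 lncRNAs added by name were left out of every count of members below. With 0 members passing in either direction, the count of members higher in miR-27 Tg was 2 after rescaling to the same median, after quantile normalization and with array weights (4933412E12Rik and Slfn5os), 1 with the longest transcript per symbol (4933412E12Rik) and 3 without transcripts of under 200 bases (Dleu2 added). The count of members lower was 1 with array weights (I730030J21Rik). Leaving out 1 library in turn gave 0 to 1 members higher, the 1 being Slfn5os without WT replicate 2, and 0 lower.

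Same-numbered replicates were not shown to be pairs. With the replicate as a block, 2 members were higher (4933412E12Rik, Slfn5os) and 5 lower (2310015A10Rik, 4930431P03Rik, 5830428M24Rik, I730030J21Rik, Rab26os), and over all genes 91 were higher and 185 lower.

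Of all genes 51 were higher and 89 lower. Without the filter on low values these counts were 22 and 14, and with array weights 81 and 144. Without 1 library they were 3 to 14 and 1 to 44. Runs without 1 library had fewer samples, so their lower counts cannot show what a single library adds. The run without the filter tested more genes. The cause of these shifts was not tested.

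The sign of small values turned for Gm15441 (-0.058 with array weights, -0.27 to 0.38 without 1 library, the lowest without miR-27 Tg replicate 3), Snhg1 (-0.19 to 0.014 without 1 library), Neat1 (-0.021 to 0.18) and Tug1 (-0.0074 to 0.17). Of the other single-gene values 435 kept their direction and side of the threshold. Members below 0 numbered 147 to 184 and hosts 18 to 22 over the alternatives. Members chosen by level had at least 21 reads in every library and 300 in the median.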

Other observations

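Spread inside a group singled out a few lncRNAs, all named after their values were seen. 5830444B04Rik had 3.53, 15.1 and 29.7 RPKM in miR-27 Tg libraries, against 28.6, 24.3 and 25.1 in WT libraries, so 1 miR-27 Tg library lay above every WT library while another held 24 reads. 2010204K13Rik had the same order with 10.6, 16.99 and 34.5 RPKM in miR-27 Tg libraries, against 24.3, 24.6 and 30.6 in WT libraries. Gm16907, which lies beside miR-27b on chromosome 13 (63289154 to 63297147, minus strand, mm10), had 116, 224 and 123 RPKM in miR-27 Tg libraries, against 138, 185 and 153 in WT libraries. Its log2 fold change was -0.09 (SE 0.24), with replicate 2 the highest in both groups. The SD on the log2 scale in miR-27 Tg was 1.41 for 5830444B04Rik, 0.82 for 2010204K13Rik and 0.52 for Gm16907, against a median of 0.17 over members.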
